A study of Mus musculus with 8 samples.

Results

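The 4 control samples of the series were LSK cells from the bone marrow of wild-type mice, described by the submitters as normal animals and numbered as replicates 1 to 4, and they were 4 of 8 arrays in all. The series' other 4 arrays, from mice with a conditional knockout of the RNA-binding protein gene Msi2, were used here only to find probe sets that were at 0 throughout. Strain, age, sex and treatment of the mice were not given in the sources used here. Total RNA was labelled with biotin and hybridised to 1 array per sample, so the spread given below is between single arrays and can hold both animal and technical differences. After control probe sets and those at 0 on all 8 arrays were left out, 24404 of 45101 probe sets were kept. Each gene was represented by the probe set that matched it alone and had the highest mean on the control arrays, which gave 10720 genes. No comparison between groups was tested, because a single group was described. A gap statistic, Dixon's, was used only to single out arrays.

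LSK cells are the fraction of bone marrow that lacks the surface markers of mature blood lineages and carries Sca-1 and the stem cell factor receptor Kit. The fraction holds the blood stem cells, which are mostly resting, together with multipotent progenitors that divide and already transcribe some genes of the myeloid, lymphoid or erythroid lineages. Low transcription of such lineage genes in uncommitted cells is known as priming. Because the RNA comes from many cells at once, a difference between arrays can reflect fewer cells of a type or less RNA per cell, and these cannot be told apart.

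Gene levels on the control arrays, as means of log2 signal, ran from 2.95 to 13.72 with a median of 7.72 and quartiles of 6.30 and 9.13. Levels are also given as a percentile among the 10720 genes, where the 100th percentile is the brightest gene. Probe sets bind with different strength, so this order is one of signals and not of transcript numbers: among 5363 genes with more than 1 measured probe set, the brightest and dimmest probe sets of a gene lay a median of 2.02 log2 units apart, with quartiles of 0.98 and 3.38. A further 7473 genes, 41.1% of the 18193 genes with a single-gene probe set, were listed at 0 on all of these. A listing at 0 is not absence, since the ribosomal protein genes Rps16 and Rps27 were listed at 0 too. The genes with the highest means were Hnrnpab, which encodes a nuclear RNA-binding protein, at 13.72, Rpsa at 13.59 and Rpl41 at 13.52.

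The SD of a gene over the 4 arrays had a median of 0.23 on the log2 scale, with quartiles of 0.14 and 0.35. The range over the arrays exceeded 1, a 2-fold difference between the highest and lowest array, in 1519 of 10720 genes (14.2%), and exceeded 2 in 134 genes (1.25%). Spread depended on level. A range over 1 was found in 28.6% and 29.5% of genes in the bins of level just above the dimmest, when genes were put into 10 equal bins, and in 1.03% of genes in the brightest bin. Pearson correlations between arrays across genes, which are not independent replicates, lay between 0.965 and 0.983. The array called control 1 stood apart, with correlations of 0.965 to 0.970. It differed from each of the other 3 by more than 1 log2 unit in 582 to 702 genes, while the other pairs differed that much in 225 to 370 genes. Without control 1 the number of genes with a range over 1 was 670 (6.25%). Control 1 lay below all 3 others in 30.8% of genes and above all 3 in 31.6%. It was also the only array with a low signal for Xist, the RNA that coats the inactive X chromosome in female cells, at 5.39 against 12.26, 12.40 and 12.51, and the only one with a high signal for the Y-linked gene Eif2s3y, at 8.12 against 3.62, 3.38 and 3.36. The hybridisation control bioB read 10.55 on control 1 and 10.07 to 10.30 on the others. The 3-prime minus 5-prime signal of actin, a sign of RNA integrity, was -0.12 on control 1 and 0.02 to 0.03 on the others, while that of Gapdh was 1.68 on control 1 and 1.64 to 1.73 on the others. With a single array of that kind, the sex of the mouse, the array and any other feature of that sample cannot be told apart, and the counts and list shifts that move most with it are given with and without it.

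Genes listed as gate and identity markers of the sorted population gave mostly high signals. The 10 measured LSK gate and identity markers had a median percentile of 89.1, 7 of them lay in the brightest 25% of genes, and 1 of 10 had a range over 1. The brightest of them were Mpo, Ly6e and Cd27, at means of 12.86, 11.41 and 11.18, and not the genes used in the sort. Kit, the stem cell factor receptor used in the sort, read 8.39, 8.68, 9.16 and 8.59 on controls 1 to 4. Its mean lay at the 68.2nd percentile, outside the brightest 25%. Cd34, a sialomucin of early progenitors, read 10.63, 10.53, 10.30 and 10.58. Flt3, the receptor that marks multipotent and lymphoid-primed progenitors, read 9.80, 9.71, 9.40 and 9.59. All 4 arrays thus carried these markers within 0.77 log2 units. Meis1, a homeobox factor of stem cells, read 9.22, 8.72, 8.98 and 9.39. The TNF receptor family member Cd27 and the SLAM family member Cd48 had means of 11.18 ± 0.05 (SD, n = 4) and 10.37 ± 0.10. Slamf1, which encodes CD150 and marks blood stem cells, was the exception, with readings of 5.39, 6.21, 5.98 and 6.66 and a place at the 21.8th percentile. Its second probe set read 4.45, 6.46, 7.06 and 6.10, so control 1 was the lowest on both while the highest array differed. Ly6a, which encodes Sca-1, had no single-gene probe set and was not analysed here. Il7r, the receptor of lymphoid progenitors, was listed at 0.

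**Figure D1:**
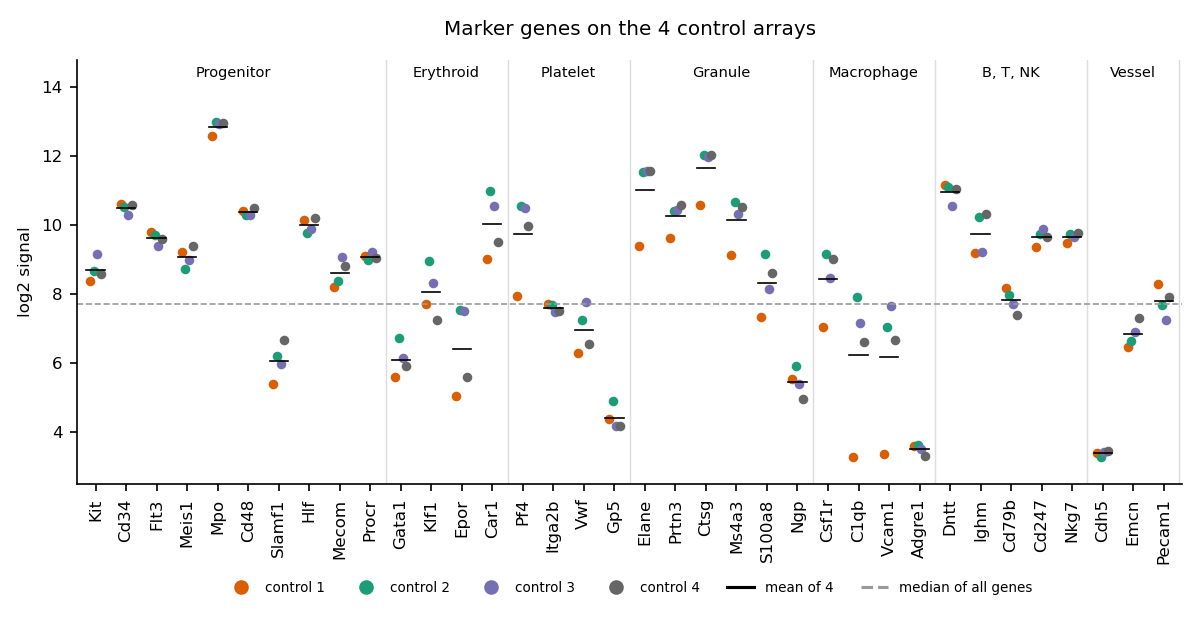
Log2 signal of marker genes on the 4 control arrays (points, 1 colour per array), with the mean of the 4 (bar) and the median of all measured genes (dashed line). Kit, Cd34, Flt3, Meis1 and Mpo lie above the median of 7.72 on all 4 arrays, while Elane, Ctsg, C1qb and Vcam1 are low on control 1 only.

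The blood stem cell genes spanned nearly the whole scale, from 4.73 for Ltb to 11.74 for Lmo2. The 30 measured members had a median percentile of 57.5, with 9 in the brightest 25% and 5 in the dimmest. Hlf, a transcription factor tied to stem cell identity, read 10.14, 9.77, 9.90 and 10.21. Procr, which encodes the stem cell surface receptor EPCR, read 9.10, 8.98, 9.23 and 9.04. Mecom, which encodes the stem cell factor EVI1, was more spread at 8.20, 8.37, 9.07 and 8.82. A range over 1 was found in 9 of the 30, against 14.2% of all genes. Without control 1 it was found in 3, against 6.25% of all genes. Among the 9 was Hoxb5, another homeobox gene, with a mean of 5.83 ± 0.77 (SD, n = 4). Tek, the angiopoietin receptor of stem cells and endothelium, read 5.95, 7.38, 7.13 and 7.24, so that only control 1 stood off. Vwf, a platelet protein also made by a subset of stem cells, read 6.30, 7.24, 7.78 and 6.56.

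For transcription regulators of early blood cells, the 42 measured members had a median percentile of 69.5, 19 lay in the brightest 25%, and 5 (11.9%) had a range over 1, against 14.2% of all genes. Without control 1 the number was 3 of 42, beside 3 of 30 for the stem cell genes and 6.25% of all genes. Myb, which maintains progenitor division, had a mean of 11.89 ± 0.06 (SD, n = 4), and Myc had 11.77 ± 0.13. The stem cell factors Lmo2, Erg, Gata2 and Runx1 had means of 11.74 ± 0.17, 11.44 ± 0.14, 10.48 ± 0.24 and 10.42 ± 0.16. Gata1, the master regulator of red cells and platelets, read 5.61, 6.72, 6.14 and 5.91. Irf8, needed for monocytes and dendritic cells, read 6.99, 8.0, 8.20 and 7.03. Cebpa, which starts the granulocyte program, read 8.05, 8.76, 8.67 and 8.55, and Spi1, which encodes PU.1, read 8.26, 8.07, 7.71 and 8.04. Control 1 was the lowest array for Cebpa and the highest for Spi1. The lymphoid factors Ebf1, Pax5, Gata3 and Irf4 were listed at 0, as were Id1 and Id3.

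Genes of multipotent and lymphoid-primed progenitors had a median percentile of 77.2 over 20 measured members. A range over 1 was found in 4 of the 20, against 14.2% of all genes. Dntt, the terminal transferase of early lymphoid cells, read 11.16, 11.10, 10.56 and 11.03, which placed it at the 94.3rd percentile. On its brightest probe set Ighm, the immunoglobulin mu locus, divided the arrays into a low and a high pair. Controls 1 and 3 read 9.20 and 9.22, and controls 2 and 4 read 10.25 and 10.32. The second probe set of Ighm did not share this split, at 8.06, 8.40, 7.88 and 8.01 on controls 1 to 4. Rag1 was listed at 0, and Rag2, its partner in antigen receptor recombination, had a mean of 4.86.

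Genes of maturing blood lineages ranked lowest and varied most. Over the 105 genes on the lineage lists the median percentile was 36.9 and 42 had a range over 1, against 14.2% of all genes. Without control 1 that number was 21, against 6.25% of all genes. In the bin of level that holds this median the share of all genes, over the 4 arrays, was 22.8%. The same bin holds the medians of the erythroid, platelet, macrophage and mast cell lists. Defining markers of mature lymphocytes were listed at 0: 19 of 30 T and NK cell genes, including Cd3e, Cd4, Cd8a and Ncr1, and 10 of 20 B cell genes, including Cd79a and Ms4a1. Among all genes with a single-gene probe set the share at 0 was 41.1%. The T and NK list and the B cell list also held 4 and 3 genes without such a probe set. Their shares over all listed genes are therefore understated beside it. Of 26 stromal and endothelial genes, 2 had no single-gene probe set and 15 were listed at 0, among them Kdr, Cxcl12 and Col1a1. The endothelial cadherin gene Cdh5 had a mean of 3.38. Some genes of the lymphoid lists gave high signals. The B cell list held Cd24a, a surface glycoprotein of many immature blood cells, at 11.62, and Vpreb1, a gene of the pre-B cell receptor, at 8.82, 8.97, 7.67 and 7.31. The T and NK cell list held Cd247 and Nkg7, a T cell receptor chain and a granule membrane protein, at means of 9.66 and 9.66.

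Granule genes of granulocytes were the brightest of the lineage lists and separated control 1 from the rest. Of 28 listed, 12 were measured, with a median percentile of 87.8. Those of early, primary granules were bright. Mpo, the myeloperoxidase gene, read 12.58, 12.98, 12.92 and 12.95. Ctsg, which encodes the protease cathepsin G, read 10.59, 12.04, 11.98 and 12.03. Elane, which encodes neutrophil elastase, read 9.39, 11.54, 11.57 and 11.57. For each of the 3 genes control 1 was the lowest array, and the other 3 lay close together, with an SD of 0.03, 0.03 and 0.02 for Mpo, Ctsg and Elane. Elane was 4.54-fold and Ctsg 2.73-fold dimmer on the lowest array than on the highest. Prtn3, which encodes proteinase 3, read 9.62, 10.42, 10.44 and 10.59, and Ms4a3, a membrane gene of granulocyte-monocyte progenitors, read 9.12, 10.67, 10.31 and 10.53. The calprotectin genes S100a8 and S100a9 had their lowest readings on control 1 as well, at 7.35 and 8.04. Genes of later granules were dim or listed at 0. Ngp, a secondary granule gene, had a mean of 5.45, Chil3 had 3.79, and Ltf, Camp, Lcn2, Mmp8 and Mmp9 were listed at 0. Control 1 was the lowest array for 11 of the 12 genes, against 30.8% of all genes. A range over 1 was found in 6 of 12, against 14.2% of all genes, and in 2 of 12 without control 1, against 6.25%. The mean deviation of the list from its 4-array mean was -0.67 on control 1 and 0.07 to 0.32 on the others. The exception was Ngp, whose lowest reading was 4.95 on control 4. Prg2, which encodes the major basic protein of eosinophils, read 4.40, 5.16, 4.96 and 7.60 and was high on control 4 alone.

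The sequences upstream of 4 primary granule genes are shown because control 1 was the lowest array for all 4. They are the 250 bases before the annotated start on build GRCm38.p6, taken from RefSeq and written 5′ to 3′ on the strand of the gene: chr10:79886062-79886311, plus strand, for Elane; chr10:79879417-79879666, plus strand, for Prtn3; chr14:56102575-56102824, minus strand, for Ctsg; and chr11:87793534-87793783, plus strand, for Mpo. Capitals mark AGGAAGT, a form of the site bound by ETS factors such as PU.1, searched on both strands, and TATAA, the core of the TATA box, searched on the plus strand between 40 and 21 bases before the start.
Elane: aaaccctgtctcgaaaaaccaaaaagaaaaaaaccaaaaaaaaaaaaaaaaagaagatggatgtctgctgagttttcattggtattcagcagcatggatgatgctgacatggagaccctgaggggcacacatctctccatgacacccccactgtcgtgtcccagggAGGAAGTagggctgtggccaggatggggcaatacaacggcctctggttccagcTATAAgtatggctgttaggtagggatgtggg
Prtn3: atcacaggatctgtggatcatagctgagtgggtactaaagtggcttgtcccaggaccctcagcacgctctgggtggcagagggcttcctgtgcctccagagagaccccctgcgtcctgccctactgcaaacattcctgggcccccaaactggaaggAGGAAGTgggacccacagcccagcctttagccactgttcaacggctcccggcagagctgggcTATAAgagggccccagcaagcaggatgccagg
Ctsg: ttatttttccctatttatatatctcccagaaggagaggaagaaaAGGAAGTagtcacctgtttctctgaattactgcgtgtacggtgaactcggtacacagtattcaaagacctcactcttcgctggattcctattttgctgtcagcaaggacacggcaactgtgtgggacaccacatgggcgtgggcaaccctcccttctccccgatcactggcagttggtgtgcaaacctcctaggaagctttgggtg
Mpo: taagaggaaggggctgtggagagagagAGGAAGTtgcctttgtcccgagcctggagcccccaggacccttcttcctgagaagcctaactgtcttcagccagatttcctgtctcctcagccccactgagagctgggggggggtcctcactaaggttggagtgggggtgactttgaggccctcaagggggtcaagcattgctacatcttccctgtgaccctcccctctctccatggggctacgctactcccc
In Elane AGGAAGT lay at positions -84 to -78 from the start and TATAA at -31 to -27. In Prtn3, its neighbour on chromosome 10, the motifs lay at -94 to -88 and at -32 to -28, so the layout of the pair was alike. In Ctsg and Mpo AGGAAGT lay farther upstream, at -206 to -200 and at -223 to -217, and no TATAA was found in the window. Other genes were searched too. Neither motif was found for Ms4a3 or Hdc, although both were lowest on control 1. AGGAAGT was found on the minus strand for Pf4, at -10 to -4. It was also found there for the ribosomal protein gene Rps3, at -119 to -113, whose range over the arrays was only 0.10. AGGAAGT was present in 7 of 12 promoters of the measured granule genes (58.3%), which belonged to 11 genes. It was present in 11 of 26 promoters of all listed granule genes (42.3%), which belonged to 24 genes. The share was 7.7% of the 32851 promoters counted. TATAA was present in 3 of the 12 promoters of measured granule genes, against 3.3% of all promoters counted and 1.7% of promoters of measured genes. AGGAAGT stood in 7.5% of promoters of genes with a range over 1 and in 7.7% of the other measured genes' promoters, and TATAA in 2.3% and 1.6%. The motifs were chosen after the values and the sequences had been seen, a match is not a bound site, and the motifs did not overlap in these windows.

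Several genes of monocytes and macrophages had far lower readings on control 1. C1qb, a complement chain made by tissue macrophages, read 3.29, 7.91, 7.16 and 6.62. Vcam1, an adhesion molecule of marrow macrophages and stroma, read 3.38, 7.06, 7.66 and 6.66. The reading on control 1 was near the lowest value on the arrays for both, so no fold is given. Second probe sets of both genes had their lowest reading on control 1 too, at 4.27 against 6.43 to 7.23 for C1qb and at 4.67 against 5.89 to 7.03 for Vcam1. Some other genes of iron-recycling macrophages, which clear old red cells, were low on the same array, and those named here were chosen after their values were seen. The iron exporter gene Slc40a1 read 5.28, 7.97, 8.15 and 7.35. The haemoglobin scavenger receptor gene Cd163 read 5.19, 7.29, 8.29 and 6.48. The heme oxygenase gene Hmox1 read 4.68, 6.49, 6.87 and 6.15. Control 1 was the lowest array for each of these genes. Csf1r, the receptor for the macrophage growth factor M-CSF, read 7.05, 9.15, 8.48 and 9.02. Its second probe set was lowest on control 1 too, at 4.31 against 5.58 to 5.85, while another lay between 5.02 and 5.34 on all arrays. Several defining markers of these cells were listed at 0. Of 31 genes listed, 1 had no single-gene probe set and 10 were at 0, against 41.1% of all genes with such a probe set. Those at 0 included Cd14, Itgam, Fcgr1, C1qa and C1qc. Adgre1, which encodes the macrophage marker F4/80, read 3.59, 3.62, 3.52 and 3.32 and was not low on control 1. The 20 measured members had a median percentile of 36.0. Of these, 6 had a range over 1, against 14.2% of all genes and 22.8% in the bin of level that holds this median. Without control 1, 3 did, against 6.25% of all genes. Control 1 was the lowest array for 11 of the 20 and the highest for 4, against 30.8% and 31.6% of all genes. The mean deviation of the list was -0.56 on control 1 and -0.03 to 0.35 on the others. The part of macrophages among the sorted cells in these differences was not tested.

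Erythroid genes varied in another way, with controls 2 and 3 high and controls 1 and 4 low. A range over 1 was found in 14 of 25 measured members (56.0%), against 14.2% of all genes. This share was larger than on any other list of at least 5 measured genes. Without control 1 such a range was found in 9, against 6.25% of all genes. In 17 of the 25, controls 2 and 3 both lay above controls 1 and 4, an order found in 20.9% of all genes. Epor, the erythropoietin receptor gene, read 5.05, 7.54, 7.52 and 5.58. Car1, a carbonic anhydrase of early red cell progenitors, read 9.02, 11.00, 10.55 and 9.52. Ermap, an erythroid membrane gene, read 8.29, 10.30, 9.75 and 8.23. For these genes the high pair and the low pair did not overlap. Klf1, the erythroid Krüppel-like factor, read 7.72, 8.96, 8.33 and 7.25. The water channel gene Aqp1, the membrane skeleton gene Ank1 and the kinase gene Sphk1 kept the same split, with ranges of 1.34, 1.19 and 1.38. Pklr, the pyruvate kinase of red cells and liver, read 6.11, 8.12, 8.78 and 6.47. Genes of late red cells were dim or flat. Slc4a1, the band 3 anion exchanger, had a mean of 3.84, Epb42 had 4.60, Rhag had 3.61, and Alas2, which makes heme in red cells, was listed at 0. The globin gene Hba-a2 read 11.53, 11.66, 11.47 and 11.53, within 0.19 log2 units. Its near-identical copy Hba-a1 was listed at 0, so the pair cannot be separated on these arrays. The list as a whole deviated by -0.45, 0.48, 0.22 and -0.26 on controls 1 to 4. The sequence AGATAA, a form of the GATA factor site searched on both strands, was present in 7 of 24 promoters of 18 erythroid genes (29.2%). It was present in 3281 of the 32851 promoters counted and in 6.1% of those of measured genes. Promoters on chromosome 18 were left out of all promoter counts, also those for granule genes.

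Some platelet and mast cell genes were low on control 1. Pf4, the platelet chemokine gene, read 7.95, 10.56, 10.51 and 9.97, which was 6.10-fold from lowest to highest. Itgb3, the beta chain of the platelet fibrinogen receptor, read 7.11, 8.34, 8.99 and 8.55, and F2r, the thrombin receptor gene, read 8.47, 9.18, 9.77 and 9.74. In all 3 genes control 1 lay below the others. The alpha chain of the same fibrinogen receptor, Itga2b, was flat, with a mean of 7.60 ± 0.12 (SD, n = 4). Markers of mature platelets, such as Gp6, Gp9 and Tubb1, were listed at 0, and Gp5 had a mean of 4.41. The platelet list deviated by -0.37 on control 1 and by -0.05 to 0.25 on the others. Control 1 was the lowest array for 7 of its 16 measured genes, against 30.8% of all genes. A range over 1 was found in 5 of the 16, against 14.2% of all genes, and in 2 without control 1, against 6.25%. In the bin of level that holds the list's median the share, with control 1 included, was 22.8%. Among mast cell and basophil genes Hdc, which makes histamine, read 5.04, 8.09, 7.96 and 7.09, and its second probe set read 5.18, 7.32, 7.05 and 5.80. The basophil protease gene Mcpt8 read 5.88, 7.30, 6.96 and 6.73. Mature mast cell proteases Mcpt4, Tpsab1 and Cma1 were listed at 0. The 10 measured genes deviated by -0.45 on control 1, and control 1 was the lowest array for 7 of them. Without control 1 the list's shift, its highest minus its lowest deviation, was 0.44 in place of 0.78, and 3 genes in place of 5 had a range over 1. Of all genes 6.25% had such a range without control 1 and 14.2% with it.

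**Figure D2:**
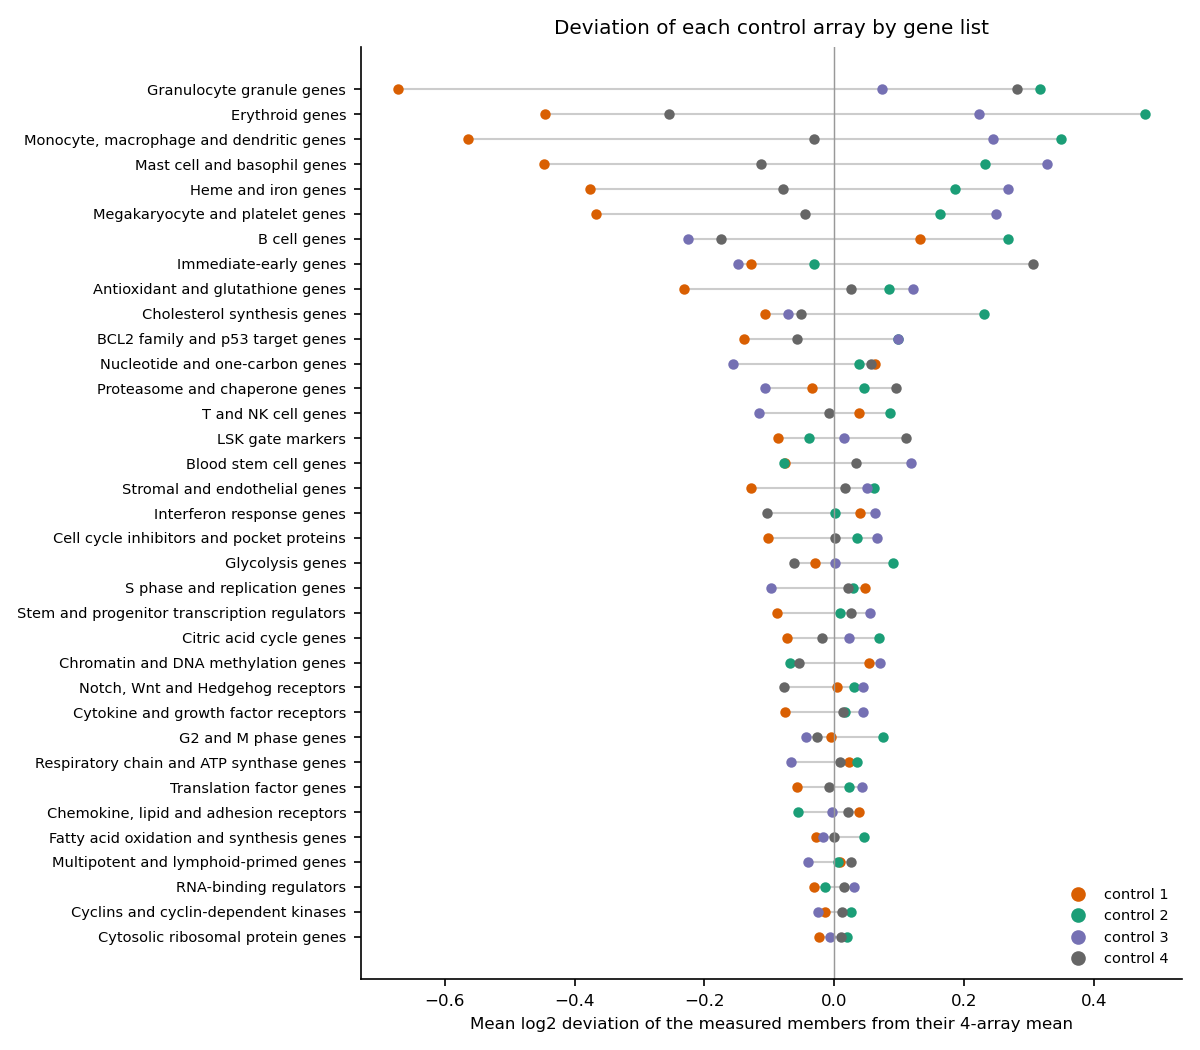
Mean deviation of each control array from the 4-array mean over the measured members of each list, on the log2 scale, with lists ordered by the range over arrays. Control 1 lies to the left for granule, erythroid, macrophage, mast cell, heme and platelet genes, controls 2 and 3 to the right for erythroid genes, and control 4 to the right for immediate-early genes.

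**Figure D3:**
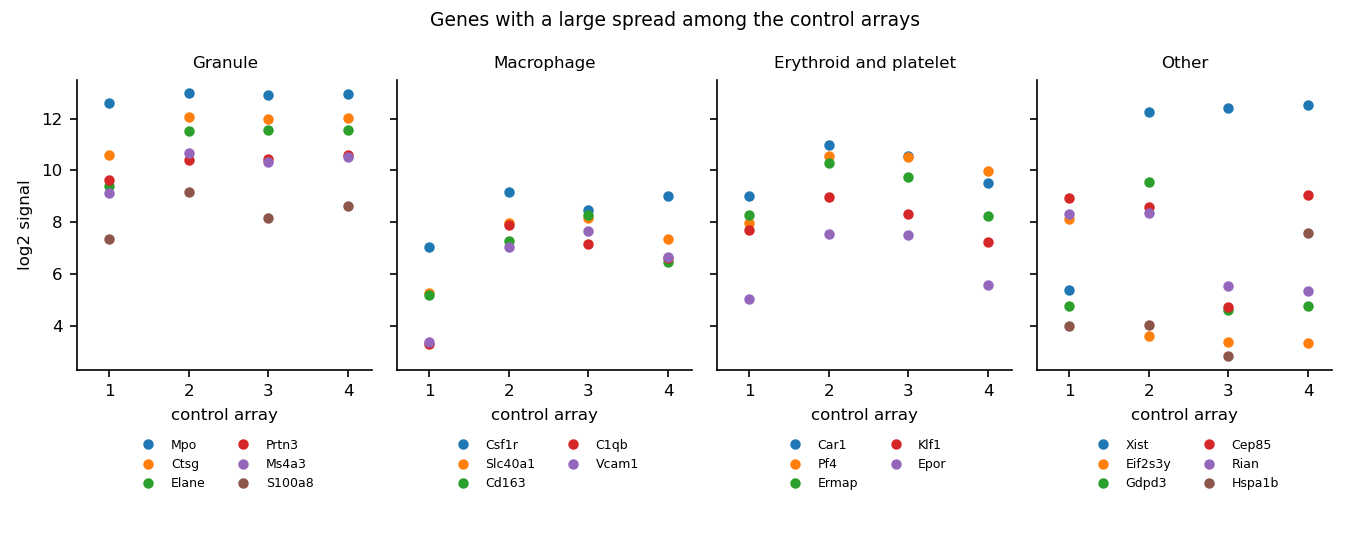
Log2 signal on each control array for named genes with a large spread, in 4 panels. Granule and macrophage genes are low on control 1 alone, and erythroid genes are high on controls 2 and 3, while Gdpd3, Cep85 and Hspa1b each stand off on a single array.

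Receptors for cytokines sat near the middle of the scale. The 45 measured cytokine and growth factor receptors had a median percentile of 51.4, and 5 lay in the brightest 25%. Il17ra, a chain of the interleukin-17 receptor, was the brightest at 12.39 ± 0.09 (SD, n = 4), followed by the interferon receptor chain Ifnar2 at 10.53 ± 0.15 and by Flt3. The receptors for granulocyte and granulocyte-macrophage growth factors, Csf3r, Csf2ra and Csf2rb, had means of 7.54, 8.24 and 8.66. A range over 1 was found in 10 of 45 (22.2%), against 14.2% of all genes and 20.5% and 13.8% in the middle bins of level. Without control 1 it was found in 4, against 6.25% of all genes. Epor, Csf1r, Tek and Igf2r were low on control 1, at 5.05, 7.05, 5.95 and 6.35. Il1r1, the interleukin-1 receptor gene, and Il15ra were high there, at 8.32 against 7.06 to 7.55 and at 8.16 against 6.99 to 7.20. Control 1 thus did not lie on a single side, and the list deviated by only -0.08 on it.

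The 47 measured chemokine, lipid and adhesion receptors had a median percentile of 55.1, with 10 in the brightest 25% and 13 in the dimmest. Of the 47, 11 had a range over 1, against 14.2% of all genes. Without control 1, 5 did, against 6.25% of all genes. Cxcr4, the receptor that holds stem cells in the marrow, read 11.53, 11.44, 11.60 and 11.64. Cd47, which protects cells from engulfment, had a mean of 11.87 ± 0.09 (SD, n = 4), the tetraspanin gene Cd53 had 11.83 ± 0.07, and Itga4, a chain of the ligand of Vcam1, had 9.74 ± 0.17. The neogenin gene Neo1 was the most spread, at 7.29, 4.32, 6.01 and 6.61. Among Notch, Wnt and Hedgehog genes, Ctnnb1, which encodes beta-catenin, read 11.94, 12.02, 12.04 and 12.02, Notch2 had a mean of 11.27 ± 0.05 (SD, n = 4) and Notch1 had 9.0 ± 0.07. The receptor Smo and the co-receptor Lrp6 had means of 10.09 and 9.89. Several pathway genes, Hes1, Hey1, Dtx1, Axin2, Lef1 and Gli1, were listed at 0. In all, 12 of 37 genes on this list were at 0, against 41.1% of all genes with a single-gene probe set.

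Cell cycle genes were bright mainly among those of S, G2 and M phase. Over the 130 cycle genes the median percentile was 73.1 and 6 (4.62%) had a range over 1, against 14.2% of all genes. In the bin of level that holds this median the share of all genes was 3.82%. Mki67, the proliferation antigen Ki-67, read 12.21, 12.26, 12.21 and 12.24. Pcna, the sliding clamp of replication, had a mean of 12.08 ± 0.03 (SD, n = 4). The replicative helicase genes Mcm7 and Mcm6 had 12.19 ± 0.10 and 11.90 ± 0.03, and the flap endonuclease gene Fen1 had 12.35 ± 0.05. Of 49 measured S phase genes 26 lay in the brightest 25%, as did 24 of 44 G2 and M phase genes, and no gene of either list was listed at 0. Their median percentiles were 78.1 and 76.7, against 55.0 for cyclins and their kinases and 53.3 for cycle inhibitors and pocket proteins. The condensin gene Smc4 and the chromosome passenger gene Cdca8 had means of 12.17 and 11.91. Among cyclins and their kinases Ccnd2 and Cdk6, the pair of early G1, had means of 11.29 ± 0.10 and 10.92 ± 0.08. Ccnd3 read 8.55, 8.04, 7.56 and 7.75. Inhibitors of the cycle were present beside these. Cdkn1b, which encodes p27, had a mean of 9.61 ± 0.05, Foxo3, which favours quiescence, had 10.82 ± 0.12, and Cdkn1a, which encodes p21, had 8.21. Cdkn1c, which encodes the stem cell inhibitor p57, was listed at 0, as were Cdkn2a and Cdkn2b. These values are averages over a mixed population and do not say which cells held which transcript.

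Genes of energy metabolism formed a graded series. The 56 measured subunits of the respiratory chain and ATP synthase had a median percentile of 94.9, and 51 lay in the brightest 25%. Ndufb7 of complex I had a mean of 12.82 ± 0.07 (SD, n = 4), Atp5a1 of the ATP synthase had 12.79 ± 0.03, and Cox4i1 of complex IV had 11.59 ± 0.09. Cox7c, also of complex IV, had a mean of 4.50, which shows how far a probe set can sit from others of the same complex. Citric acid cycle genes followed at a median percentile of 85.6, with Mdh2 at 12.23 ± 0.03 and the citrate synthase gene Cs at 10.60 ± 0.05. Idh1, the cytosolic isocitrate dehydrogenase gene, was low on control 1, at 8.35 against 9.29 to 9.35. Glycolysis genes had a median percentile of 75.3. Pgam1, Ldha, Pgk1 and Pkm, enzymes of the lower part of the pathway, had means of 12.04, 11.58, 11.54 and 11.19. Fatty acid genes had a median percentile of 72.9 and none of 23 had a range over 1, while 4 regulators of this pathway, Ppara, Ppard, Pparg and Ppargc1a, were listed at 0.

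Biosynthetic genes differed by pathway. Nucleotide and one-carbon genes had a median percentile of 83.3, with the nucleoside diphosphate kinase gene Nme2 at 12.13 ± 0.06 (SD, n = 4) and the serine synthesis gene Phgdh at 11.15 ± 0.26. Control 3 was the lowest array for 15 of 32 of them, against 23.5% of all genes, and the list deviated by -0.16 there. Cad, which starts pyrimidine synthesis, read 8.49, 8.69, 7.84 and 8.96, and Tyms, which makes thymidylate, read 6.69, 6.52, 5.96 and 7.55. The dimmer probe sets of Tyms were lowest on control 1 instead, at 4.55 and 3.69. Cholesterol synthesis genes sat lower, at a median percentile of 49.8. Control 2 was the highest array for 14 of 24 of them, against 23.0% of all genes, and the list deviated by 0.23 there and by -0.05 to -0.11 elsewhere. Fdft1, which makes squalene, read 7.71, 8.67, 7.91 and 7.92, and Sqle, which oxidises it, read 6.49, 7.97, 7.71 and 6.79. The upstream enzyme gene Hmgcs1 read 10.62, 11.11, 10.94 and 11.13, with controls 2 and 4 nearly level. Its dimmer probe sets were highest on control 2, at 8.77, 7.61 and 7.54.

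Genes of redox and iron handling joined bright and variable members. Sod1, Gpx1 and the ferritin gene Fth1 had means of 12.73 ± 0.08 (SD, n = 4), 12.54 ± 0.05 and 12.30 ± 0.03. The metallothionein gene Mt2 read 5.38, 7.82, 7.84 and 7.17, and its neighbour Mt1 read 7.38, 8.46, 8.51 and 8.52. The microsomal glutathione transferase gene Mgst1 read 5.40, 7.05, 7.62 and 7.53, and the glutathione reductase gene Gsr read 10.49, 11.17, 11.23 and 11.26. Alas1, the housekeeping enzyme of heme synthesis, read 7.58, 8.89, 8.99 and 8.77. Control 1 was the lowest array for all 5 of these genes, for 15 of 21 heme and iron genes and for 19 of 34 antioxidant genes, against 30.8% of all genes. The heme and iron list deviated by -0.38 on control 1 and by -0.08 to 0.27 on the others. A range over 1 was found in 7 of 21 heme and iron genes, against 14.2% of all genes, and in 2 without control 1, against 6.25%. The same numbers, 7 and 2, held for the 34 antioxidant genes, whose shift was 0.35 over all arrays and 0.095 without control 1.

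Genes of the cell's machinery, such as protein synthesis and turnover, were the brightest class and had the smallest share with a range over 1. Over 181 machinery genes the median percentile was 94.4 and 5 (2.76%) had a range over 1, against 14.2% of all genes. That share was not below those of all genes in the brightest bins of level, 1.03% and 2.33%. The 39 measured cytosolic ribosomal protein genes had a median percentile of 99.5, a median SD of 0.06 and no range over 1. Rpsa read 13.62, 13.57, 13.56 and 13.60. The list still held Rpl37 at a mean of 3.59 and Rpl39 at 5.99, both far below the other members, and a further 29 of the 70 genes listed had no single-gene probe set. Translation factors had a median percentile of 97.8, and proteasome and chaperone genes 94.5. RNA-binding regulators had a median percentile of 90.5. Msi2, the gene deleted in the other arm of the series and a promoter of stem cell self-renewal, read 11.65, 11.40, 11.48 and 11.62, while its relative Msi1 was listed at 0, as were the fetal regulators Lin28a and Lin28b. Among chromatin genes the maintenance methyltransferase gene Dnmt1 had a mean of 11.72 ± 0.09 (SD, n = 4) and the de novo enzyme gene Dnmt3a had 10.37 ± 0.09. Kdm6a, an X-linked demethylase gene, read 7.54 on control 1 and 8.74, 8.84 and 8.90 on the others, which are the 3 arrays with a high Xist signal.

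**Figure D4:**
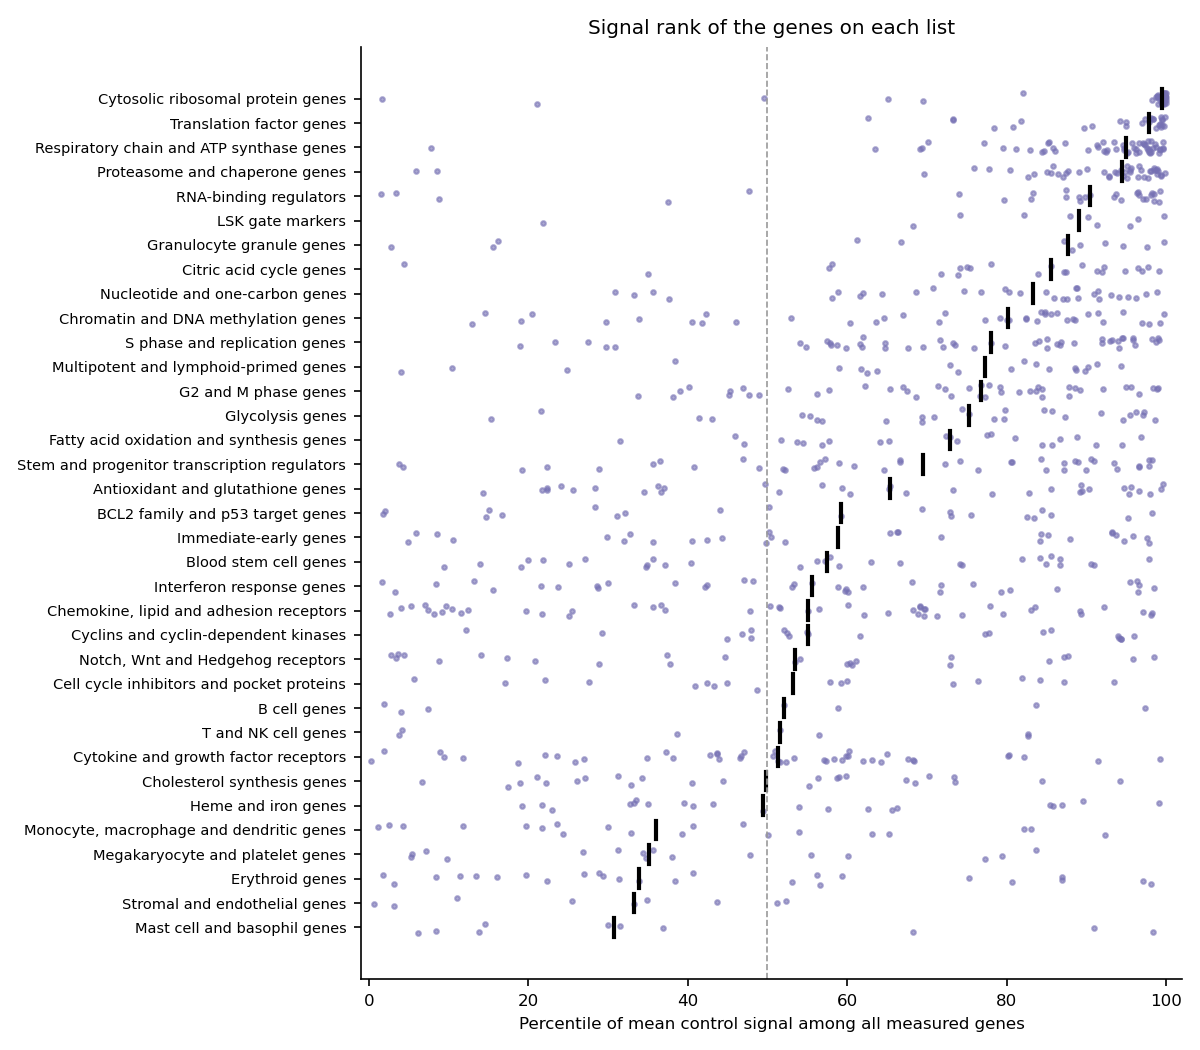
Percentile of the mean control signal for each measured gene (points) on 35 lists, with the list's median (bar) and the 50th percentile (dashed line). Ribosomal, translation, respiratory chain and proteasome genes crowd the right edge, while mast cell, stromal, erythroid, platelet and macrophage genes have medians between 30.8 and 36.0.

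Immediate-early genes, which respond quickly to stimulation, were high on control 4. This array was the highest for 17 of 30 measured members, against 19.8% of all genes, and the list deviated by 0.31 there and by -0.03 to -0.15 elsewhere. Fos read 10.30, 10.91, 10.61 and 11.26, and Fosb read 8.54, 8.65, 7.60 and 9.59. The phosphatase gene Dusp1 read 10.73, 10.90, 10.38 and 11.08, and the signalling regulator gene Rgs1 read 9.57, 10.14, 10.15 and 10.63. Egr1 instead was low on control 1, at 9.14 against 9.95 to 10.07. The list's deviation on control 4 includes Hspa1b, an inducible heat shock gene and its most spread member. Hspa1b read 3.98, 4.04, 2.82 and 7.58, and Hspa1a read 3.83, 3.74, 3.62 and 5.77. These are near-identical copies whose probes may share signal, so they count as a single observation.

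Interferon response genes had a median percentile of 55.6 over 35 measured members. Of these, 4 (11.4%) had a range over 1, against 14.2% of all genes. Ifitm3, an antiviral membrane protein gene of stem cells, had a mean of 11.99 ± 0.13 (SD, n = 4), while Irf7, Mx1, Mx2, Rsad2 and Ifit3 were listed at 0. The GTPase gene Iigp1 read 5.60, 6.55, 7.39 and 5.23. Among survival genes Bcl2 had a mean of 11.87 ± 0.09 and Mcl1 had 11.14 ± 0.04, and the BH3-only genes Bbc3, Bmf, Bik and Hrk were listed at 0.

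Several of the most variable genes belonged to no list and stood off on arrays other than control 1. Gdpd3, a phosphodiesterase gene, read 4.78, 9.55, 4.61 and 4.76, and was high on control 2 alone. Cep85, a centrosome gene, read 8.93, 8.60, 4.73 and 9.04, and was low on control 3 alone, while its second probe set read 4.33, 5.12, 5.51 and 5.26 and did not share the drop. The gluconeogenic gene Fbp1 read 5.32, 7.52, 9.70 and 9.58. The imprinted non-coding RNA Rian read 8.31, 8.35, 5.55 and 5.36, which divided the arrays into controls 1 and 2 against controls 3 and 4, and Meg3 from the same imprinted cluster read 7.91, 6.42, 4.98 and 6.71. Mgam, a maltase gene, was low on control 1, at 4.05 against 7.36 to 7.89. Among bright genes the splicing gene Bud31 read 11.71, 10.65, 10.21 and 11.93, and its second probe set stayed between 9.37 and 9.73. Over all genes with a range over 1, control 1 was the array farthest from the rest in 716 of 1519, below them in 389 and above them in 327. In 6.0% of all genes the gap between the outermost array and its neighbour took up more of the whole range than Dixon's 95% critical value allows. Of 3741 genes whose second probe set had a mean of at least 6, 324 had a range over 1 on the brightest probe set, and 91 of these (28.1%) had it on both. The share was 12.7% among the 3417 genes without such a range on the brightest.

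**Figure D5:**
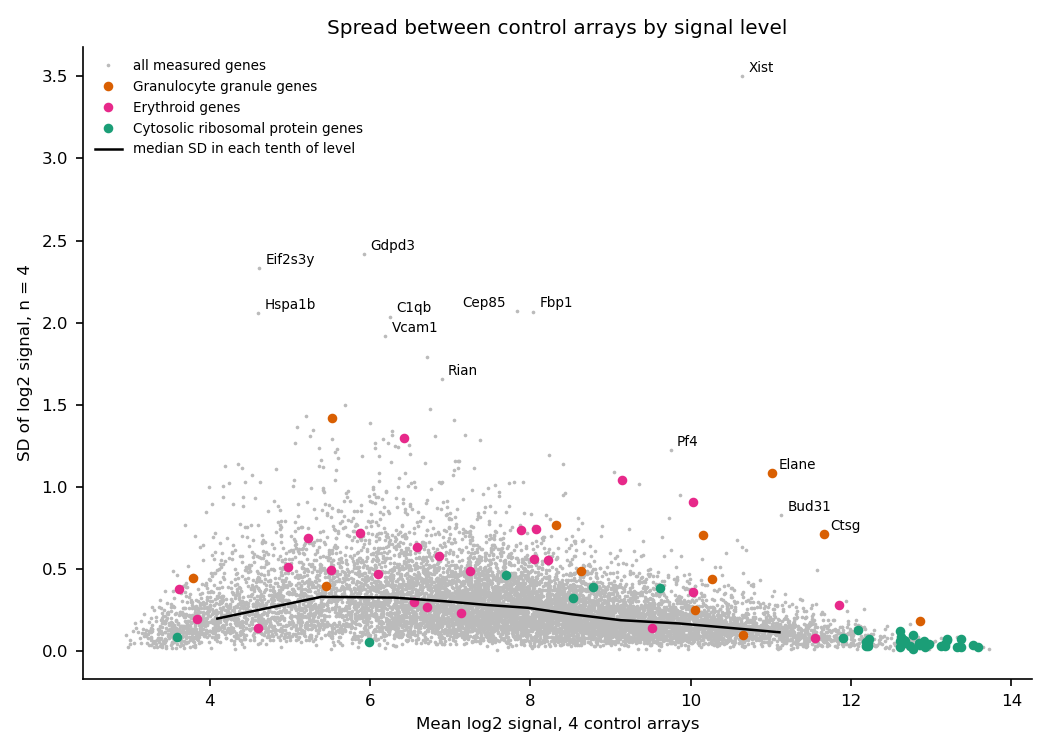
SD over the 4 control arrays against mean log2 signal for 10720 genes (grey), with granule, erythroid and ribosomal protein genes coloured and the median SD in each of 10 equal bins of level as a line. Ribosomal protein genes lie at high level and low SD, while Elane, Ctsg, Pf4 and many erythroid genes lie well above the line.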

How the data were processed

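RNA of LSK cells was measured on 8 arrays that give a signal per probe set. The authors deposited log2 values, with RMA named in the submitters' processing notes and its version not given in the sources used here. The deposited values held an exact 0 throughout the 8 arrays for 20664 probe sets (45.8%) and on some arrays only for none, and the step that set them to 0 was not stated. Probe sets were named from the platform annotation, updated through gene IDs: 34958 had 1 gene, 932 several and 9211 none. No value was normalized again. Mean, SD, range and percentile were computed over the 4 controls with Python 3.11.15, numpy 2.4.6 and pandas 2.3.3. Scripts were tested on simulated data. The spread ratio is the SD divided by the median SD of genes of like level, in 10 equal bins. A list's deviation is the mean over its measured members of an array's value minus the 4-array mean, and its shift is the highest minus the lowest of the 4.

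The members, gene lists and rules were chosen with earlier results of these data known. The text names a fixed set of genes of interest, the 3 highest, the lowest and the most spread of each list, and 20 genes each by level, SD and spread ratio, which came to 223 genes, and adds other list members chosen after their values were seen. The counts of which array was highest, the second probe sets and the promoter motifs were also chosen then. Alternatives changed the normalization, the probe set, the filter, the threshold and the arrays used. Depth is limited by the number of arrays.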

Additional observations from a re-analysis of the deposited data

Results flagged for a closer look

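In a group of 4 arrays, an array was singled out where its gap to the nearest of the others took up more of the whole range than Dixon's 95% critical value allows. This was the case for 23 of 223 named genes (10.3%) and 3 of 36 lists (8.3%), and for 6.0% of all measured genes. Chance gives about 5 in 100. The named genes were partly chosen for their spread on these arrays, so their share is not comparable with that of all genes. The values below are those of the array that stood off. The gap is relative to a gene's own range, so a flagged difference can be small. The whole range was 0.07 for Pgam1, 0.08 for Mcl1, 0.11 for Fen1, 0.13 for Psmb8 and 0.18 for Malat1. For Elane it was 2.18.

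Control 1 was low for the granule genes Elane (9.39), Ctsg (10.59) and Mpo (12.58), for the immediate-early gene Egr1 (9.14), the flap endonuclease gene Fen1 (12.27) and the glycolytic gene Pgam1 (11.99). It was also low for the vesicle adaptor gene Ap3s1 (9.77), for Igsf6 (8.51), for the maltase gene Mgam (4.05), for the urate transporter gene Slc2a9 (7.83) and for Xist (5.39). Control 1 was high for Eif2s3y (8.12), for the immunoproteasome gene Psmb8 (11.52), for the helicase gene Dhx37 (8.23), and for the dim genes Bmpr1a (3.57), Fzd1 (4.05) and Igf2bp1 (3.68). The sex-linked list deviated by -0.88 on control 1, an average of opposite shifts in its 2 measured genes, Xist and Eif2s3y.

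Control 2 was high for Gdpd3 (9.55) and for Plek (9.98), which encodes the platelet protein pleckstrin, and for the cholesterol synthesis list, with a deviation of 0.23. The dimmer probe sets of Plek were highest on control 3 instead, at 8.15 and 7.88. Control 3 was low for Cep85 (4.73) and for the nucleotide and one-carbon list, with a deviation of -0.16. Control 4 was high for the heat shock gene Hspa1a (5.77), the nuclear RNA Malat1 (13.45) and the survival gene Mcl1 (11.20).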

How the results depend on the processing

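Centring each array on its median, quantile normalization of the 4 arrays and choosing probe sets by their mean over all 8 arrays left the summary values below within the spread between replicates. With every probe set of a gene averaged, the median percentile moved to 72.6 for identity, 45.9 for lineage, 74.2 for cycle, 82.5 for metabolic, 92.8 for machinery and 63.3 for state genes. Without probe sets ending in _s_at or _x_at it was 55.3 for receptor, 69.7 for cycle, 94.0 for machinery and 55.3 for state genes. Over the genes at or above the median level alone, 313 genes had a range over 1, the lowest correlation was 0.934, and the median percentile was 59.0 for lineage, 36.5 for receptor, 63.2 for cycle, 72.0 for metabolic and 91.1 for machinery genes. There the shift of the platelet list was 1.13 and that of the macrophage list 0.38, as fewer genes were left. A range over log2 of 1.5 was met by 4486 genes, a range over 2 by 134, and a range over 1 by 4102 probe sets.

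Leaving out each control in turn gave 670 to 1204 genes with a range over 1 and a lowest correlation of 0.965 to 0.979. The median percentile was 51.4 to 52.9 for receptor, 79.2 to 80.8 for metabolic and 57.0 to 58.0 for state genes. The shift was 0.24 to 0.99 for granule, 0.30 to 0.62 for platelet, 0.38 to 0.91 for macrophage and 0.35 to 0.64 for heme and iron genes, against 0.99, 0.62, 0.91 and 0.64 over all 4, and the lowest value came without control 1 each time. The erythroid shift stayed between 0.67 and 0.92. Without control 1 the SD of Elane was 0.02 in place of 1.09 and that of Xist 0.12 in place of 3.50. The level of 101 of the 223 named genes moved by more than its SD when all probe sets of a gene were averaged. No paired analysis was possible because only the control group was described, so there was no second group to pair with. The 4 arrays and differing probe affinity limit the precision, and dim genes have only a signal near the floor of the array.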
